A study of Mus musculus with 20 samples.

Results

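EGF and neuregulin ligands are growth factors that reach their target cells in secreted or membrane-bound form and act through the ErbB receptor tyrosine kinases. The members were taken by gene symbol, by a rule that uses no measured value although earlier results of these data were known when it was set: Areg, Ereg, Btc, Egf, Hbegf, Tgfa, Nrg1, Nrg2 and Nrg4. All 9 were found among the 43280 genes counted in embryonic mesenchyme and among the same number counted in adult mesenchyme.

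ErbB ligands share an EGF-like domain and are mostly made as membrane-anchored precursors, from which metalloproteases of the ADAM family release the soluble factor. Amphiregulin (Areg), EGF and TGF-alpha bind EGFR, betacellulin (Btc), epiregulin (Ereg) and HB-EGF bind EGFR and ERBB4, and the neuregulins bind ERBB3 or ERBB4, while ERBB2 pairs with the other receptors and has no known ligand of its own. In the gut, EGF family signals promote growth of the epithelium and are standard supplements of epithelial organoid cultures, and stromal cells next to the crypts are among their sources.

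Stomach and intestine of mouse embryos labelled C57BL/6 were compared at E13.5, as GFP+ cells sorted from control embryos (Bapx1-cre;Rosa26mTmG) and from embryos that also carried Eed fl/fl, called KO below. Eed encodes a core subunit of Polycomb Repressive Complex 2 (PRC2), and the design asks how organ and PRC2 loss shape the mesenchyme. Each of these 4 groups had 2 RNA-seq libraries and 1 list of ATAC-seq peaks, which mark accessible chromatin and were called by the authors on pooled replicates. A further 4 RNA-seq libraries, 2 labelled WT and 2 labelled EED-KO, came from adult intestinal mesenchyme. Controls as well as KO embryos carried the Bapx1 Cre and the reporter, which turns on GFP after recombination, so the sort holds cells that expressed Bapx1 at that stage or earlier. For the adult libraries the study methods describe GFP+ cells from the small intestine of tamoxifen-treated Pdgfrβ Cre-ERT2;Rosa26mTmG mice with or without Eed fl/fl, and the labels give no strain. The reporting summary of the study gives mixed strain backgrounds for its mice. That driver marks pericytes and other perivascular cells as well as fibroblasts.

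Total gene counts were 36415106 and 30236159 in the control intestine libraries, 36996971 and 36132378 in KO intestine, 34115855 and 39606157 in control stomach and 35876989 and 36332139 in KO stomach. The adult libraries were shallower, at 11404712 and 12225290 gene counts in controls and 11423651 and 15903642 in those labelled EED-KO. A count of 0 therefore allowed up to 3 counts, which is 0.0757 to 0.0992 CPM (counts scaled to the size of the library) in the 8 embryonic libraries and 0.189 to 0.263 CPM in the 4 adult ones. The CPM values of genes use library sizes adjusted by TMM scaling in edgeR, and these limits do not, so they compare only roughly. These limits, and the counting intervals given for ratios, cover counting error only. The biological coefficient of variation estimated by edgeR was 15.8% in the embryonic libraries and 29.1% in the adult ones. A gene was called when the edgeR quasi-likelihood F-test gave a Benjamini-Hochberg adjusted p under 0.05 over all genes tested and its log2 fold change passed 1 or -1. The study describes the libraries as biological replicates, but whether each came from a separate animal is not stated. The p-values therefore rest on the spread between libraries of the same group, which may be technical. In the main fit of the 8 embryonic libraries that spread was estimated over all 4 groups, also those outside a comparison. edgeR also shares information on the spread across genes. An exact permutation test of 2 against 2 libraries cannot go below p = 0.333, the value that any pair of groups without overlap reaches. A lack of overlap is therefore given as a description, and the share of all genes without overlap was not computed. Because these are bulk libraries, fewer cells of a type and less RNA per cell cannot be told apart.

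Eed itself stood at 38.1 and 40.1 CPM in control intestine and at 10.7 and 8.58 CPM in KO intestine. In the stomach Eed was at 40.04 and 41.5 CPM in controls and at 11.5 and 7.40 CPM in KO. All 4 KO libraries lay far below all 4 controls, and edgeR called Eed lower in intestine (log2 fold change -2.02, SE 0.21, adjusted p = 0.00464) and stomach (-2.11, SE 0.21, adjusted p = 0.00175). In the adult libraries Eed was at 29.7 and 33.4 CPM in controls and at 25.6 and 25.001 CPM in those labelled EED-KO. On the TPM scale, which has no TMM scaling, the adult values of Eed were 34.8 and 38.1 TPM in controls and 21.2 and 18.6 TPM in those labelled EED-KO. The adult groups did not overlap on either scale, and the difference was not called (edgeR log2 fold change -0.32, SE 0.21, adjusted p = 0.317). The counts cover the whole gene and do not single out the deleted exons, and since Eed was not called in the adult, these samples are referred to as libraries labelled EED-KO throughout. The study also assessed Eed deletion in cells of this adult Cre model, and that measure is not used here. Mesenchymal markers were abundant in every embryonic library, with summed levels of 5151 to 9956 TPM (counts scaled to gene length and library) over the 9 of 10 listed genes found in the tables and collagen genes as the most abundant.

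Several of the ligand genes lie together in a group on chromosome 5. Ereg (chr5:91074617-91093649, GRCm38/mm10), Areg (chr5:91139615-91148432) and Btc (chr5:91357261-91402994) lie together with Epgn, a further EGF family gene, over 375.5 kb. The gap was 46.0 kb between Ereg and Areg and 208.8 kb between Areg and Btc. Egf lies at chr3:129677575-129755322, Tgfa at chr6:86195251-86275639 and Nrg4 at chr9:55220222-55326844. RefSeq promoter sequences of GRCm38.p6, which run from 250 bases before to 50 bases after a gene start, matched 5 of the 9 ligands (Areg, Btc, Egf, Tgfa and Nrg4) and not Ereg, Hbegf, Nrg1 or Nrg2. The promoters of Areg and Btc are printed because these genes of the group differed between organs, and both Egf entries because their ATAC-seq peaks differed in height. They are written 5′ to 3′ on the strand of the gene, from chr5:91139349-91139648 (plus strand, Areg), chr5:91402945-91403244 (minus, Btc), chr3:129755273-129755572 (minus, Egf at the start of the gene) and chr3:129725037-129725336 (minus, Egf at a start inside the gene).
Areg: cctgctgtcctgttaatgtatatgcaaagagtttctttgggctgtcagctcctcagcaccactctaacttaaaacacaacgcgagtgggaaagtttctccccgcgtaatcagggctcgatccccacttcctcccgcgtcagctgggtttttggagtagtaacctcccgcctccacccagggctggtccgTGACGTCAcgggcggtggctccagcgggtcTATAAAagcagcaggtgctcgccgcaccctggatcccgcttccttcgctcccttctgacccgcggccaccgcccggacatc
Btc: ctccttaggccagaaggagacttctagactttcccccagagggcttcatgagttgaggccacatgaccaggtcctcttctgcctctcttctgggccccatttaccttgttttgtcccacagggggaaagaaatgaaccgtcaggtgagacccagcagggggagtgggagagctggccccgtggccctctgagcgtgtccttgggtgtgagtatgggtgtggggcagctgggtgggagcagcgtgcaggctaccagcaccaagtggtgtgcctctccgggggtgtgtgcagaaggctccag
Egf, first start: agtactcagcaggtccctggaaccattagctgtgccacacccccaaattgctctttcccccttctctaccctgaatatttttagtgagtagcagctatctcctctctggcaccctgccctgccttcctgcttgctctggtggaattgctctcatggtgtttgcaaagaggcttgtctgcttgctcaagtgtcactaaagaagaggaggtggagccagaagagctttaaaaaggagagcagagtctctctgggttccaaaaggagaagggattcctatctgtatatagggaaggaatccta
Egf, second start: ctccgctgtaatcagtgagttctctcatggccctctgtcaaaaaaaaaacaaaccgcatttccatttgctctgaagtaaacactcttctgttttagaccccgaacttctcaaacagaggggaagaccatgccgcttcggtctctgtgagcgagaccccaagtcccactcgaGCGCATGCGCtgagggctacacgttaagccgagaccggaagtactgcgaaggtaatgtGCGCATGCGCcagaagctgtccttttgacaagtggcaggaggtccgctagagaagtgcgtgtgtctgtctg
Capitals mark matches to any of 4 short motifs searched on both strands: a cyclic AMP response element (CRE, TGACGTCA), a TATA box (TATAAA), an AP-1 site (TGANTCA) and an NRF1-type core (GCATGCGC). Areg held 1 CRE and 1 TATA box, motifs found in 1.79% and 13.6% of all 32851 mouse promoters. The Btc window and the first Egf window held none of the 4 motifs. The second Egf window held 4 matches to the NRF1-type core counted over both strands, which overlap in pairs and merge into the 2 capital runs, against 2.71% of promoters with at least 1 match, and the AP-1 site, found in 7.81%, was in none of the 4 windows. CG dinucleotides numbered 21 in Areg, 5 in Btc, 0 at the first Egf start and 17 at the second, beside a median of 7 over all promoters. A match describes the letters of these windows and nothing more.

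Within each embryonic group the ligands differed widely in level. On the TPM scale, which corrects for gene length, control intestine was led by Nrg1 at 13.9 ± 0.138 TPM (SD, n = 2), followed by Nrg2 at 9.23 ± 1.46 and Hbegf at 5.24 ± 0.336. No neighbours among these 3 overlapped between libraries, and Btc came next at 1.02 ± 0.174 TPM. In control stomach Nrg2 led at 11.6 ± 2.12 TPM, before Btc at 8.80 ± 1.81, Nrg1 at 6.13 ± 1.31, Hbegf at 5.47 ± 0.681 and Egf at 1.35 ± 0.0887. There the ranges of Nrg2 and Btc overlapped, as did those of Nrg1 and Hbegf, so the order within each pair is not resolved. Counting ligands with a mean of at least 1 TPM gave 4 in control intestine, 3 in KO intestine, 5 in control stomach and 5 in KO stomach. In KO intestine Nrg2 (9.02 ± 3.58 TPM) and Nrg1 (8.04 ± 2.66 TPM) overlapped at the top, with Hbegf at 5.28 ± 0.0635 TPM. In KO stomach Nrg2 (7.58 ± 0.932 TPM) and Hbegf (6.44 ± 1.09 TPM) overlapped at the top, and Nrg1 (4.91 ± 0.427 TPM) overlapped with Btc (4.66 ± 0.457 TPM). Areg, Ereg, Tgfa and Nrg4 stayed below 1 TPM in all 8 embryonic libraries. Of the EGF family genes outside the 9, Epgn reached at most 0.174 TPM and Nrg3 at most 0.105 TPM in any embryonic library. The Nrg1 value rests on a gene model of 2103 exon bases that starts inside the gene, which limits its TPM.

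**Figure D1:**
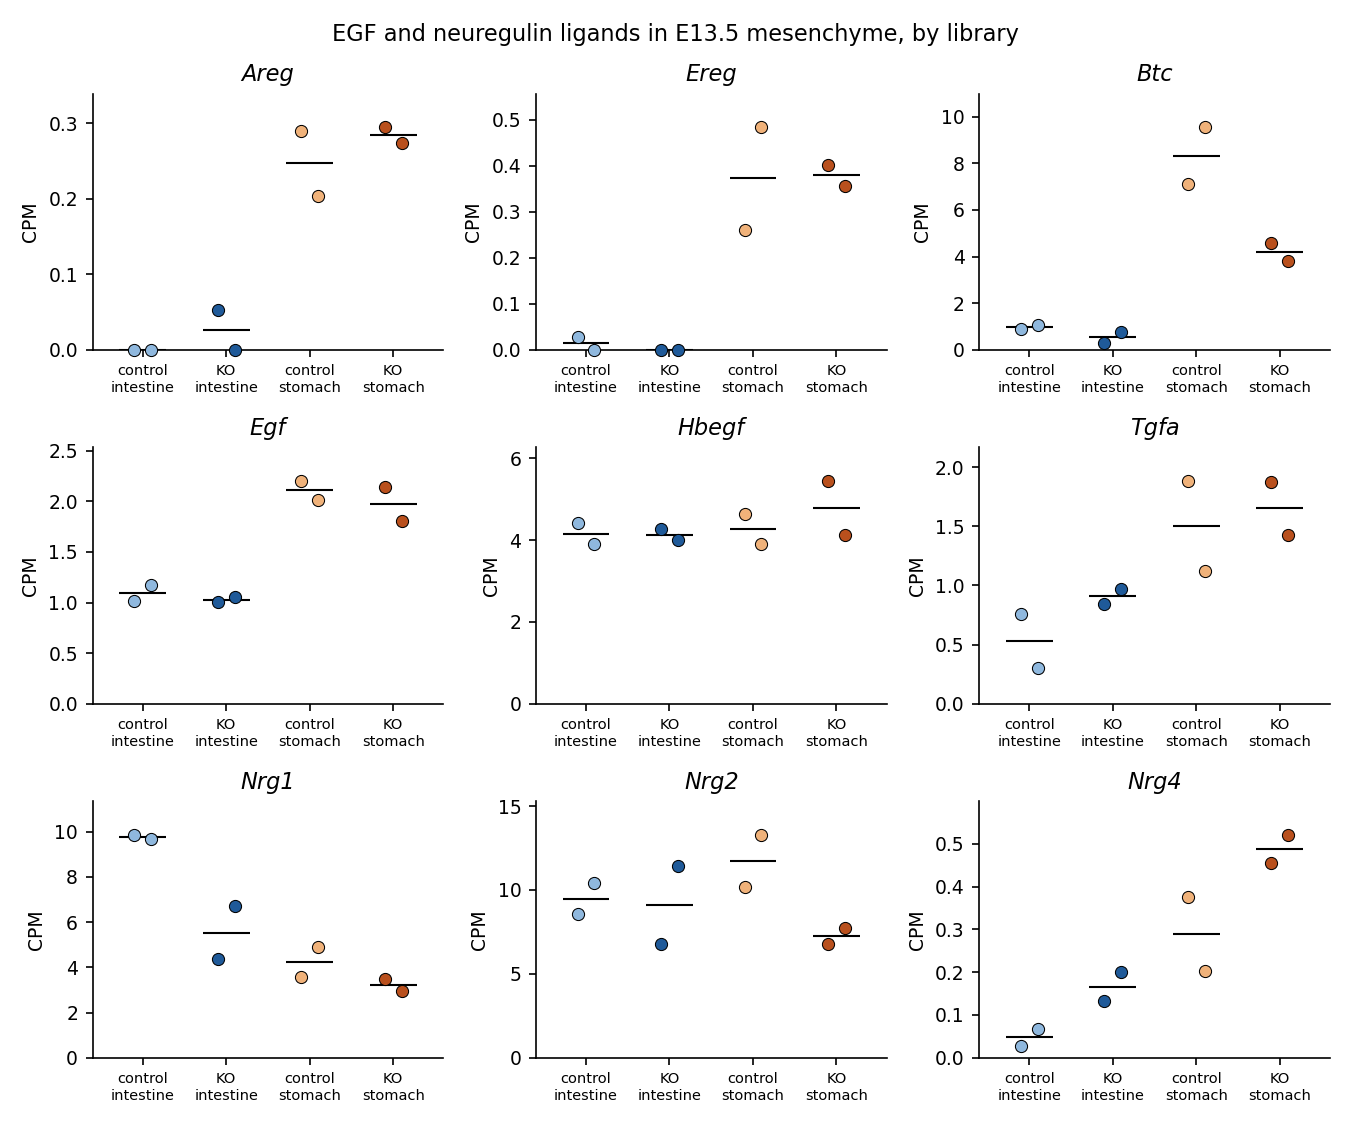
Level of each of the 9 ligands in the 8 embryonic libraries in CPM, with 1 point per library and a line at the mean of the 2 libraries of a group. Each panel has its own axis from 0, and Areg, Ereg and Btc sit low in all 4 intestinal libraries while Hbegf is level across groups.

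Stomach and intestinal mesenchyme of control embryos differed in Areg, Ereg and Btc of the chromosome 5 group and in Nrg1. Btc, a ligand of EGFR and ERBB4, was at 7.10 and 9.56 CPM in control stomach and at 0.871 and 1.08 CPM in control intestine. Ereg had 9 and 19 counts in control stomach against 1 and 0 in control intestine, and Areg had 10 and 8 counts against 0 and 0. For each of these 3 genes every stomach library lay above every intestinal one. Nrg1, a ligand of ERBB3 and ERBB4, went the other way, at 9.86 and 9.69 CPM in control intestine and 3.59 and 4.89 CPM in control stomach, again without overlap. edgeR called 4 of the 9 ligands and 5.07% of the 16218 genes tested. DESeq2 called 3 ligands, leaving out Ereg. The 4 include Areg and Ereg, which were tested through their stomach counts, so this count is a description. In a fit of the control groups alone 6 ligands were tested, and Btc and Nrg1 were called. Btc was 8.57-fold lower in intestine (log2 fold change -3.10, SE 0.38, edgeR adjusted p = 0.00322) and Nrg1 2.30-fold higher (1.20, SE 0.25, edgeR adjusted p = 0.0289). Areg, with no counts in control intestine, was at least 5.42-fold lower there by the floor of 3 counts over the group (edgeR adjusted p = 0.0494). Ereg was 25.3-fold lower by the ratio of its 1 to 28 counts, with a 95% counting interval of 4.19 to 1035 (edgeR adjusted p = 0.0374). Areg, Ereg and Nrg4 passed the filter on low counts through the stomach libraries alone, so a difference between organs was built into their being tested and their calls are descriptions.

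The calls of Areg, Ereg and Nrg1 were lost in each of the 4 fits that left out 1 control library, over which their log2 fold changes ran from -6.37 to -5.90, from -6.76 to -3.59 and from 1.00 to 1.45. The Ereg value moved most, to -6.76 without control intestine replicate 1, which held its only intestinal count, and to -3.59 without control intestine replicate 2. The Areg values, and the Ereg value of -6.76, come from 0 intestinal counts and depend on the prior count of the fit. Btc stayed called in all 4 of those fits (-3.30 to -2.86). When libraries were scaled to their spike-ins the median gene moved by 0.30 log2 in this comparison. No ligand was called by edgeR on that scale, beside 155 of 16218 genes tested, for a cause that was not tested. Btc was at -2.83, or -3.12 relative to that shift, and Nrg1 at 1.48, or 1.18 relative to it. The Areg call was also lost with 1 spike-in factor in the fit. The edgeR or DESeq2 adjusted p over the alternatives ran from 0.0253 to 0.227 for Areg, from 0.0125 to 0.188 for Ereg, from 9.43e-14 to 0.101 for Btc and from 0.000553 to 0.985 for Nrg1, and no ligand called here changed sign in any of them.

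The 5 ligands that were not called between control organs divided into a set with lower values in intestine and a pair that was level. Egf was at 1.01 and 1.18 CPM in control intestine and 2.20 and 2.01 CPM in control stomach (edgeR log2 fold change -0.95, adjusted p = 0.0646). Tgfa was at 0.758 and 0.303 CPM against 1.88 and 1.12 CPM (edgeR log2 fold change -1.46, adjusted p = 0.128). The Tgfa value was -2.28 without control intestine replicate 1 and -0.98 without replicate 2. Tgfa was called by edgeR when no filter on low counts was used, and with a replicate block by genotype (-1.52). Both genes encode ligands of EGFR, and neither overlapped between the organs. Nrg4, a ligand of ERBB4, had 1 and 2 counts in control intestine and 13 and 8 in control stomach, a ratio of 6.33 with a 95% counting interval of 1.89 to 33.1 (edgeR adjusted p = 0.073). Its log2 fold change ran from -3.20 without control intestine replicate 2 to -2.03 without control intestine replicate 1. Hbegf was at 4.41 and 3.90 CPM in control intestine and 4.64 and 3.90 CPM in control stomach, and Nrg2 at 8.57 and 10.4 against 10.2 and 13.3 CPM. The organs overlapped for both Hbegf (edgeR log2 fold change -0.04, SE 0.20) and Nrg2 (-0.31, SE 0.26).

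Markers of other cell types also differed between the control organs. Of 7 epithelial genes Epcam alone was called, lower in intestine, and the list summed to 114 and 186 TPM in control intestine and 186 and 194 TPM in control stomach, with Krt19 the most abundant and no gene at 0. Of 5 mesothelial genes Wt1 was called lower in intestine, and the list, led by Upk3b, summed to 383 and 603 TPM against 603 and 624 TPM. Of 7 endothelial genes Cdh5, Emcn and Pecam1 were called higher in intestine and Erg lower, with sums of 8.27 and 11.4 TPM against 9.17 and 9.90 TPM. Of 16 immediate early genes, which respond within minutes to growth factors and to tissue handling, Dusp1 and Klf4 were called lower in intestine. That list, led by Fos and with no gene at 0, summed to 1534 and 985 TPM in control intestine and 2235 and 2159 TPM in control stomach. Des of the smooth muscle genes, Rgs5 of the pericyte genes and H2-Ab1 of the antigen presentation genes were called higher in intestine, and Twist1 of the mesenchymal genes lower. These calls stand beside 5.07% of all genes called in this comparison. The part of these genes and cells in the ligand differences was not tested.

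The organs without Eed were compared in the same way. Btc was at 4.56 and 3.81 CPM in KO stomach and at 0.290 and 0.770 CPM in KO intestine. Ereg had 15 and 13 counts in KO stomach and 0 and 0 in KO intestine, and Areg had 11 and 10 counts against 2 and 0. None of the 3 overlapped between the organs. edgeR called 2 of 9 ligands, against 4.40% of genes tested: Btc, 7.93-fold lower in KO intestine (log2 fold change -2.99, SE 0.40, adjusted p = 0.00652), and Ereg, at least 9.45-fold lower by the floor (adjusted p = 0.0227). DESeq2 called Btc and Ereg too. As between the control organs, Areg, Ereg and Nrg4 were tested through their stomach counts alone. The Ereg call, and the count of 2 beside 4.40%, are therefore descriptions. With the KO groups fitted alone 8 ligands were tested, and Btc was the only ligand called. Areg, 10.6-fold lower by its counts with a 95% interval of 2.60 to 93.5, was not called (edgeR adjusted p = 0.0868). A replicate block by genotype did call Areg (log2 fold change -3.24). Both of its counts in KO intestine came from replicate 1, and its log2 fold change of -3.22 moved to -6.35 without that library and to -2.35 without KO intestine replicate 2. Nrg1 was at 4.38 and 6.70 CPM in KO intestine and 3.49 and 2.96 CPM in KO stomach, without overlap, and was not called (edgeR log2 fold change 0.78, SE 0.25, adjusted p = 0.132). Egf was at 1.00 and 1.06 CPM in KO intestine and 2.15 and 1.81 CPM in KO stomach (edgeR log2 fold change -0.94, SE 0.24, adjusted p = 0.0669), and Tgfa at 0.844 and 0.970 against 1.88 and 1.43 CPM (edgeR log2 fold change -0.86, adjusted p = 0.326). Nrg4 had 5 and 7 counts against 17 and 19 (edgeR log2 fold change -1.55, SE 0.49, adjusted p = 0.124). None of these 3 was called. As a description, none of the 3 overlapped between the organs, while Hbegf (-0.21) and Nrg2 (0.32) overlapped. The Ereg call was lost in each of the 4 fits without 1 KO library (log2 fold change -6.85 to -6.67) and when the KO groups were fitted alone, and the Btc call was lost under spike-in scaling, which shifted the median gene by -0.24 log2 (Btc -2.98, or -2.74 relative to the shift). Without KO intestine replicate 2 Btc was at -3.83. The Ereg log2 fold changes, and the Areg value of -6.35, come from 0 counts in KO intestine and depend on the prior count of the fit. Smooth muscle markers moved beside these ligands, with 4 of 6 genes (Actg2, Cnn1, Des and Tagln) called higher in KO intestine. That list, led by Acta2 and with no gene at 0, summed to 5148 and 8172 TPM in KO intestine and 3063 and 3420 TPM in KO stomach. Of 16 immediate early genes Btg2, Egr2 and Klf4 were called lower in KO intestine, with sums of 1338 and 1833 TPM against 2830 and 3246 TPM, led by Fos. Wt1 and Erg were called lower in KO intestine, and Lyz2, Cd79b and Bmp5 higher. The part of these genes in the ligand differences was not tested.

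**Figure D2:**
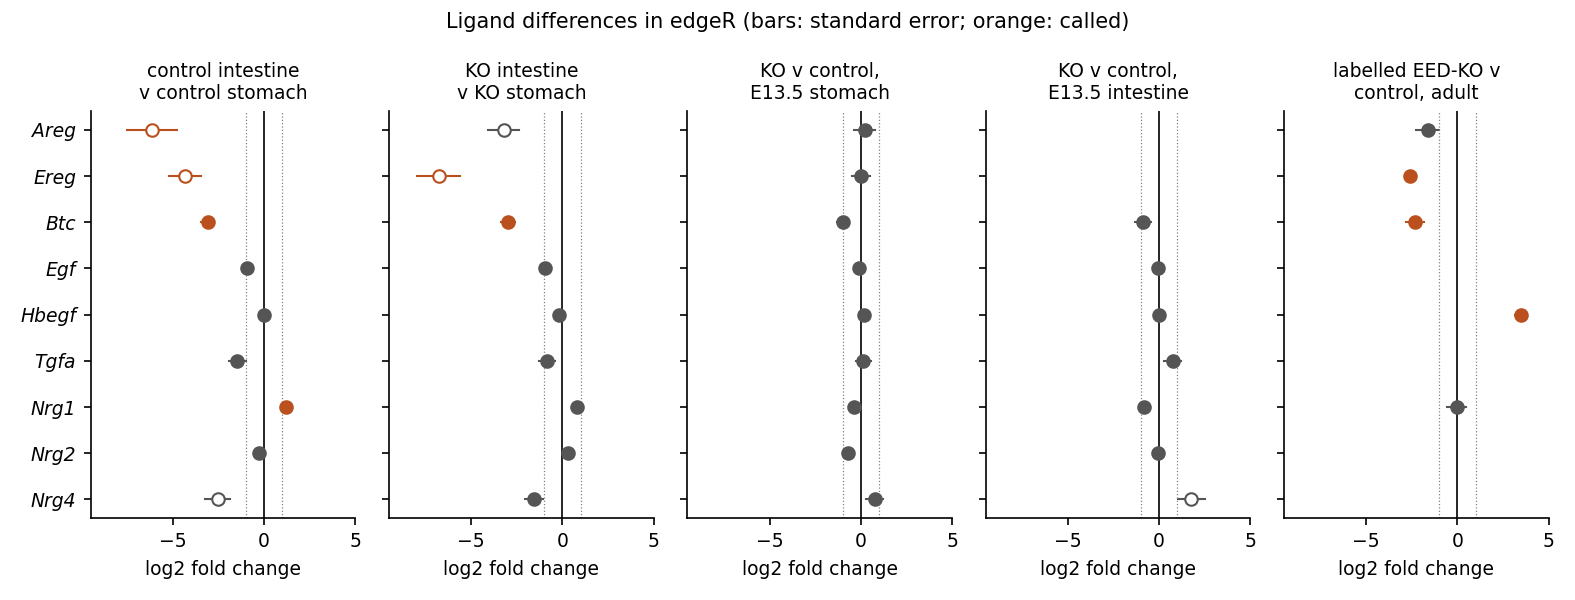
Log2 fold change of each ligand in 5 comparisons from edgeR, with bars of 1 approximate standard error derived from the F statistic, orange for called ligands and dotted lines at 1 and -1. Open points have 3 or fewer counts in a group and depend on the prior count of the fit, Areg and Ereg in embryonic intestine and 4 ligands under the adult filter are left out, and the calls lie in the organ comparisons and in the adult intestine.

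Loss of Eed in the embryonic stomach was examined next. Btc was at 7.10 and 9.56 CPM in control stomach and at 4.56 and 3.81 CPM in KO stomach, and Nrg2 at 10.2 and 13.3 against 6.78 and 7.76 CPM. Both KO libraries lay below both controls for each gene. Nrg1, at 3.59 and 4.89 against 3.49 and 2.96 CPM, was separated by a narrow margin. None of the 9 ligands was called by edgeR (0 of 9), against 5.65% of genes tested. The share of all genes at an unadjusted p under 0.05 was not computed, in edgeR or DESeq2, so counts at that level are descriptions. In edgeR 2 ligands were at that level. These were Btc (log2 fold change -0.99, SE 0.33, edgeR adjusted p = 0.123) and Nrg2 (-0.69, SE 0.26, edgeR adjusted p = 0.173). DESeq2 called 0 of 9 as well, with 2 at an unadjusted p under 0.05. Without the filter on low counts edgeR called Btc. With 1 spike-in factor in the fit the log2 fold changes were -1.38 for Btc, -1.45 for Nrg2 and 1.00 for Areg, not called by edgeR, where Areg was at 0.21 without that factor. Areg (11 and 10 counts in KO, 10 and 8 in control), Ereg (15 and 13, 9 and 19), Egf, Hbegf and Tgfa overlapped between the genotypes. Nrg4 had 13 and 8 counts in control and 17 and 19 in KO stomach, which did not overlap (edgeR log2 fold change 0.76, SE 0.45, adjusted p = 0.371). Spike-in scaling shifted the median gene by 2.39 log2 in this comparison. On that scale 8 of 9 ligands were called higher in KO, beside 15419 of all 16218 genes tested. Relative to the shift Btc was at -1.06, Nrg2 at -0.66 and the other 7 between -0.47 and 0.76. Endothelial markers differed here, with 4 of 7 called higher in KO (Cdh5, Emcn, Pecam1 and Tie1) and sums of 9.17 and 9.90 TPM in controls against 17.1 and 30.8 TPM, led by Kdr. The immediate early genes Egr2, Egr3 and Klf4 and the antigen presentation gene H2-Ab1 were called higher in KO stomach as well, and the macrophage gene Lyz2 lower. The part of these genes in the ligand values was not tested.

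In the embryonic intestine Nrg1 was at 9.86 and 9.69 CPM in controls and at 4.38 and 6.70 CPM in KO. Both KO libraries lay below both controls, and the difference did not pass the adjusted threshold (edgeR log2 fold change -0.82, SE 0.24, adjusted p = 0.149). Nrg4 had 1 and 2 counts in controls and 5 and 7 in KO, a ratio of 3.65 with a 95% counting interval of 0.984 to 20.1 (edgeR adjusted p = 0.336). Its log2 fold change of 1.76 moved to 1.24 without control intestine replicate 1 and to 2.41 without control intestine replicate 2. edgeR called 0 of 9 ligands in this comparison, against 2.61% of genes tested, and Nrg1 and Nrg4 were the 2 with an unadjusted p under 0.05. DESeq2 also called 0 of 9 and gave 2 at an unadjusted p under 0.05, again with no share of all genes computed at that level. Btc, at 0.871 and 1.08 CPM in controls and 0.290 and 0.770 CPM in KO, and Tgfa, at 0.758 and 0.303 against 0.844 and 0.970 CPM, did not overlap between genotypes either. Neither was called, with edgeR adjusted p-values of 0.451 for Btc and 0.609 for Tgfa. Over the fits without 1 library the log2 fold change ran from -1.73 to -0.33 for Btc and from 0.25 to 1.56 for Tgfa. Areg (0 and 0 counts in control, 2 and 0 in KO) and Ereg (1 and 0, 0 and 0) were at or under the floor in both genotypes, so no fold is given. Egf, Hbegf and Nrg2 overlapped. Spike-in scaling shifted the median gene by 1.85 log2 and called 4 of 9 higher in KO, beside 13664 of all 16218 genes tested. Relative to the shift these 4 were Hbegf at -0.04, Nrg2 at 0.10, Tgfa at 0.71 and Nrg4 at 1.69. Nrg1, not called on that scale, was at -0.70 relative to the shift. Of the endothelial markers 3 of 7 were called higher in KO intestine (Cdh5, Erg and Tie1), with sums of 8.27 and 11.4 TPM against 27.6 and 30.7 TPM, and the immediate early gene Klf4 was called higher too. Their part was not tested. Both KO comparisons share no control library with each other, but each shares its controls with the comparison of control organs.

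Whether the effect of Eed loss differed between the organs was tested by the interaction of organ and genotype, called at an adjusted p under 0.2. edgeR called 0 of 9 ligands, against 0.462% of genes tested, and no ligand had an unadjusted p under 0.05 (0 of 9), in edgeR or in DESeq2, which called 0 as well. The estimate, stomach minus intestine, was -0.11 log2 for Btc (SE 0.57, edgeR adjusted p = 1.00), -0.63 for Nrg2 (SE 0.37) and 0.42 for Nrg1 (SE 0.35). The sign for Btc is not resolved, since its estimate was -0.66 without KO intestine replicate 1 and 0.74 without KO intestine replicate 2. The missing calls do not show that the ligands responded alike in the organs.

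By the highest Pearson correlation of log2 CPM over the 8 embryonic libraries, the genes most like Btc were Frrs1 (r = 0.992), Slitrk4 (r = 0.986) and Dcaf6 (r = 0.984), out of 13385 genes compared. For Nrg1 they were Mfge8 (r = 0.982), Slitrk6 (r = 0.977) and Etv1 (r = 0.977). The 8 libraries are 4 groups of 2, so these values mostly describe group means and are given as a description.

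Accessible chromatin lay over the start of every ligand. A peak covered or came within 1000 bp of the annotated start for 9 of 9 ligands in each of the 4 lists, beside 88.0% of 16193 genes in control intestine, 89.1% in KO intestine, 88.4% in control stomach and 89.1% in KO stomach. Epgn, not one of the 9, had none, with the nearest peak 7921 bp away in control intestine. Each list pools its replicates, so the fold enrichment over local background has no replicate error and its differences were not tested. The median over the 9 ligands was 5.34 in control intestine, 5.39 in KO intestine, 6.00 in control stomach and 5.29 in KO stomach. Over all genes with a peak the medians were 6.91, 6.46, 6.80 and 6.69 in the same order.

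Areg had a fold enrichment of 6.67 in control intestine, 6.63 in KO intestine, 7.81 in control stomach and 7.44 in KO stomach, at a start whose RNA was at or near 0 in intestine. Ereg had 4.79, 7.999, 7.22 and 6.55 in the same order, and Btc 5.28, 5.39, 6.04 and 6.24. The control intestine value of Ereg was the lowest of its 4. For Areg and Btc both intestinal lists had a lower value than both stomach lists, a difference that was not tested. At the single start of each gene model used for counting, Hbegf had the highest fold enrichment of the 9 in control stomach (8.93) and in control intestine (8.47), and 7.19 and 7.69 in KO intestine and KO stomach. Nrg1 was lowest in control intestine at 3.41, over the start of the gene model used for counting. Another Nrg1 start of GENCODE vM21, at position 32009451 of chromosome 8, had peaks of 5.52 to 5.72 in the 4 lists. A further start, at position 32884029, had peaks of 3.60 to 4.51. At Egf the start of the gene had 4.87, 5.25, 4.55 and 4.37 in the same order, and the start inside the gene, whose promoter holds the NRF1-type cores, had 11.9, 12.9, 12.6 and 13.8. With peaks of fold enrichment 4 or more only, Nrg1 lost its peak in control intestine and control stomach and Tgfa in KO stomach. Across the chromosome 5 group from Epgn to Btc the lists held 15, 13, 16 and 11 peaks in the same order.

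**Figure D3:**
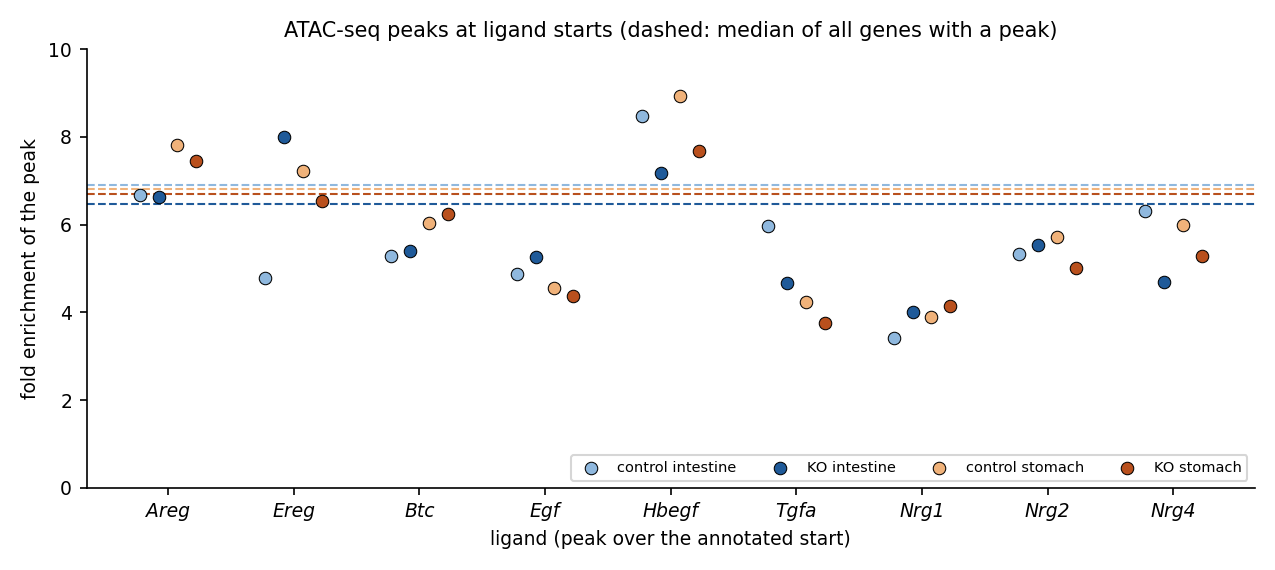
Fold enrichment over local background of the ATAC-seq peak at the annotated start of each ligand, with 1 point per peak list, each list called on pooled replicates, and dashed lines at the median of all genes with a peak. Every ligand has a peak in all 4 lists, Hbegf and Areg sit among the highest, Nrg1 is lowest in control intestine (3.41), and Ereg is lower in control intestine (4.79) than in the other lists.

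In adult intestinal mesenchyme the order of the ligands was different from that in the embryo, with no test between the ages because kit, driver and sort differ together. Control libraries were led by Ereg at 61.9 ± 12.1 TPM (SD, n = 2), followed by Btc at 13.9 ± 4.59, Hbegf at 9.05 ± 0.0872, Areg at 7.51 ± 3.52 and Nrg1 at 4.83 ± 1.11. Hbegf, Areg and Nrg1 followed each other with overlap between Hbegf and Areg and between Areg and Nrg1. Nrg2, Nrg4, Egf and Tgfa were below 1 TPM in all 4 adult libraries. In the libraries labelled EED-KO Hbegf led at 66.8 ± 19.1 TPM, before Ereg at 7.09 ± 2.98, Nrg1 at 3.13 ± 1.22, Btc at 1.94 ± 1.24 and Areg at 1.59 ± 0.300. There Hbegf lay clear of Ereg and Ereg clear of Nrg1, while Nrg1, Btc and Areg overlapped with their neighbours. Ereg in control embryonic intestine was at 0.0200 and 0 TPM, beside 70.4 and 53.3 TPM in the adult controls.

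Ereg was at 112 and 87.1 CPM in adult controls and at 20.7 and 12.5 CPM in the libraries labelled EED-KO. Btc was at 18.9 and 12.1 CPM against 4.41 and 1.85 CPM. Hbegf, which binds EGFR and ERBB4 and also serves as a membrane-bound growth factor, was at 8.18 and 8.53 CPM against 68.9 and 116 CPM. Ereg and Btc were lower, and Hbegf higher, in both libraries labelled EED-KO than in both controls. Of the 9 ligands 5 passed the filter on low counts, and edgeR called 3 of these 5, against 19.6% of the 15039 genes tested. Ereg fell 6.00-fold (log2 fold change -2.58, SE 0.29, edgeR adjusted p = 0.00133) and Btc fell 5.01-fold (-2.32, SE 0.49, edgeR adjusted p = 0.0155) in the libraries labelled EED-KO. Hbegf rose 11.03-fold (log2 fold change 3.46, SE 0.30, edgeR adjusted p = 0.000448). DESeq2 called the same 3 ligands, and all 3 were called under every one of the 9 alternatives run. Btc moved most, to -3.08 without replicate 1 of the libraries labelled EED-KO. Spike-in scaling shifted the median gene by -0.42 log2, and relative to the shift Ereg was at -2.51, Btc at -2.20 and Hbegf at 3.41.

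Areg was at 4.60 and 2.38 CPM in adult controls and at 0.901 and 1.31 CPM in the libraries labelled EED-KO. The groups did not overlap, and the difference was not called (edgeR log2 fold change -1.64, SE 0.63, adjusted p = 0.106). Nrg1, at 4.53 and 3.36 against 2.60 and 5.09 CPM, overlapped (edgeR log2 fold change -0.03, SE 0.52, adjusted p = 0.976). The other 4 ligands had few counts: Tgfa 0 and 2 in controls and 4 and 7 in those labelled EED-KO, Egf 1 and 4 against 0 and 6, Nrg2 5 and 7 against 5 and 1, and Nrg4 6 and 2 against 6 and 4. Of their ratios only that of Tgfa, 4.76 with a 95% counting interval of 1.04 to 44.2, had an interval that left out 1. Adult counting ignored strand, so reads of a gene on the opposite strand are added where exons overlap. In GENCODE vM21 such an overlap covers 141 exon bases of Ereg (Gm19610) and 482 of Nrg1 (Gm26578) and none of Areg, Btc or Hbegf. It also covers 118 exon bases of Tgfa (Gm43917), 500 and 607 of Egf and 368 and 177 of Nrg4. How much of it lies in the gene models used for counting was not tested.

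**Figure D4:**
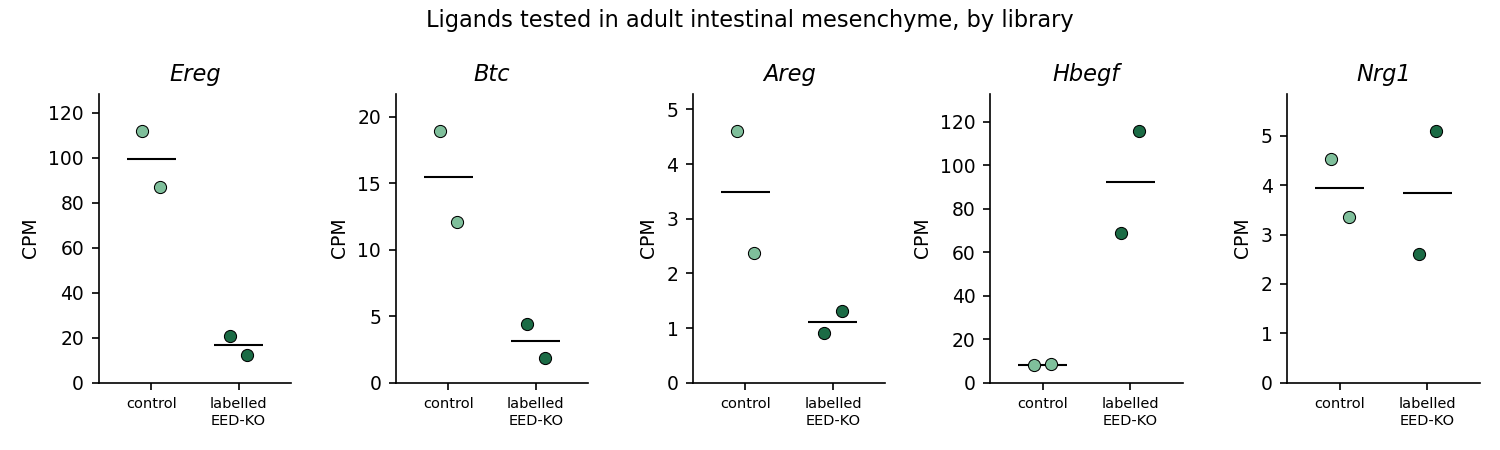
Level of the 5 ligands tested in adult intestinal mesenchyme in CPM, with 1 point per library and a line at the mean of the 2 libraries of a group. Ereg, Btc and Areg lie lower and Hbegf higher in the libraries labelled EED-KO, and Nrg1 overlaps.

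The adult libraries also differed in markers of other cells. All 8 macrophage genes tested were called higher in the libraries labelled EED-KO, and the list, led by Lyz2 in all 4 libraries and with no gene at 0, summed to 1141 and 1664 TPM in controls and 25351 and 21524 TPM in those labelled EED-KO. Of 6 antigen presentation genes 5 were called higher, and their sum was 5783 and 7929 TPM against 153451 and 161534 TPM, of which Cd74 made up 3926 and 5102 against 100977 and 105908 TPM. Of 7 mesenchymal genes tested 4 were called lower (Pdgfra, Col1a1, Col1a2 and Col3a1), with sums of 3642 and 3623 TPM against 1126 and 742 TPM, Col1a1 leading. Of 6 pericyte genes 3 were called lower (Abcc9, Kcnj8 and Rgs5), with sums of 7674 and 6405 TPM against 1787 and 1164 TPM, Rgs5 leading. Of 15 immediate early genes tested 7 were called higher, with sums of 8463 and 9324 TPM against 9706 and 10232 TPM. Of 6 smooth muscle genes 3 were called higher (Actg2, Cnn1 and Myh11), with overlapping sums of 2329 and 2942 TPM against 2820 and 2995 TPM, Acta2 leading. Of 7 endothelial genes Pecam1 was called higher, with sums of 49.1 and 47.8 TPM against 47.6 and 63.2 TPM. Among 8 markers of adult fibroblast subtypes Cd81 and Pi16 were called higher and Bmp5 and Foxl1 lower. That list summed to 621 and 833 TPM against 2805 and 2790 TPM, of which Cd81 made up 2596 and 2579 TPM in the libraries labelled EED-KO. Of 8 lymphocyte genes Cd79b and Ptprc were called higher and Cd79a lower, with sums of 89.8 and 82.9 TPM against 218 and 174 TPM, led by Cd79a in controls and by Ptprc in those labelled EED-KO. The enteric neural crest list, in which Elavl4 of 4 genes tested was called higher, summed to 1.08 and 1.95 TPM against 8.86 and 7.47 TPM. Mesothelial genes summed to 14.3 and 22.4 TPM against 3.77 and 6.86 TPM with no gene called by edgeR. These counts stand beside 19.6% of all genes called. Epithelial genes, with 0 of 7 called by edgeR, summed to 40.6 and 80.3 TPM against 59.4 and 56.3 TPM. The part of these genes and cells in the changes of Ereg, Btc and Hbegf was not tested, and the sort on GFP was meant to keep Pdgfrβ-lineage cells only.

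Per 1000 counts of Pdgfra, a scale chosen after the values were seen, Ereg stood at 97.1 and 95.2 in adult controls and at 63.4 and 46.5 in the libraries labelled EED-KO. On the same scale Btc stood at 16.4 and 13.2 against 13.48 and 6.88, and Hbegf at 7.11 and 9.33 against 211 and 430. On this scale the groups of Ereg and Hbegf did not overlap, with a much smaller gap for Ereg and a wider one for Hbegf than in CPM, and Btc overlapped. Pdgfra itself was called lower in the libraries labelled EED-KO, so this scale shrinks any decrease and widens any increase by construction.

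**Figure D5:**
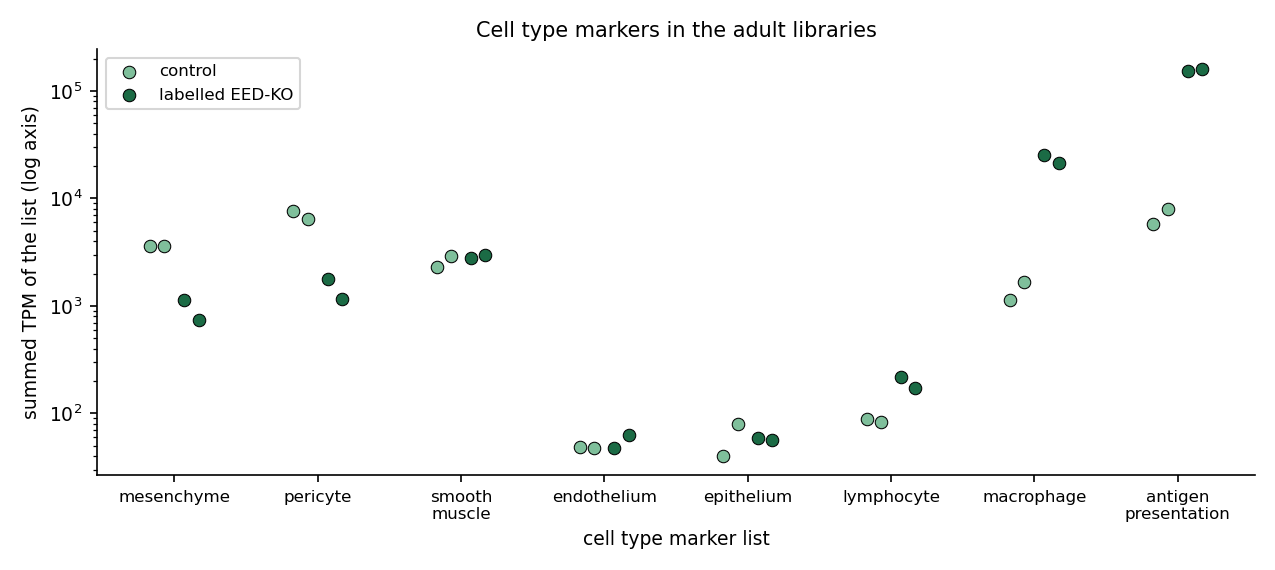
Summed TPM of 8 cell type marker lists in the 4 adult libraries on a log axis, with 1 point per library. Macrophage and antigen presentation genes are higher and mesenchyme and pericyte genes lower in the libraries labelled EED-KO, while the sums of smooth muscle, endothelium and epithelium overlap between the groups, although 3 of 6 smooth muscle genes and Pecam1 of the endothelium were called higher.

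Receptors for these ligands were present at uneven levels. Erbb2 was at 65.7 to 104 TPM and Egfr at 28.2 to 63.4 TPM over the 8 embryonic libraries, whereas Erbb3 stayed between 0.317 and 3.01 TPM and Erbb4 between 0.0804 and 0.557 TPM. Of the 4 receptors Erbb3 was called lower in control intestine than in control stomach (log2 fold change -1.56, SE 0.36, edgeR adjusted p = 0.0445), and no other receptor was called in any comparison. Egfr was at 45.7 and 46.0 CPM in adult controls and 28.4 and 26.9 CPM in the libraries labelled EED-KO (edgeR log2 fold change -0.73, adjusted p = 0.0349), short of the fold threshold, and Erbb4 had no counts in any adult library.

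Among 8 sheddases and partners, which release ligand precursors or help to do so, Adam12 was called higher in KO stomach (log2 fold change 1.71, SE 0.28, edgeR adjusted p = 0.0132). In the adult libraries labelled EED-KO Adam12 was called lower (-1.88, edgeR adjusted p = 0.0322) and Adam17, the main sheddase of EGFR ligands, higher (1.00, edgeR adjusted p = 0.0129). None of the 8 was called between organs or in KO intestine by edgeR. Of 13 inhibitors of ErbB and MAPK signalling, Dusp4 was called higher in control intestine than control stomach (1.17, edgeR adjusted p = 0.00864). In KO stomach Lrig1 was called lower (-1.02, edgeR adjusted p = 0.0025) and Spry4 higher (1.07, edgeR adjusted p = 0.00996). In the adult libraries labelled EED-KO Cbl (1.56) and Errfi1 (1.83) were called higher and Spry1 (-2.33) lower. Of 8 response genes tested, the cell cycle gene Ccnd1 was called higher in KO intestine (1.69, edgeR adjusted p = 0.0118) and KO stomach (1.01, edgeR adjusted p = 0.0369), and Etv5, Fosl1, Ier3 and Myc were called higher in the adult libraries labelled EED-KO, at log2 fold changes of 1.51, 3.31, 1.77 and 1.83. In the adult comparison the called genes were thus 2 of 8 sheddases and partners, 3 of 13 inhibitors and 4 of 8 response genes, where 19.6% of all genes tested were called. The embryonic counts stand beside 5.07% of genes called between control organs, 5.65% in KO stomach and 2.61% in KO intestine.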

How the data were processed

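RNA-seq and ATAC-seq files deposited by the authors were analysed; the members and lists were chosen with earlier results of these data known. The authors deposited whole-number read counts per gene, made with Trimmomatic 0.32, STAR 2.5.1b and featureCounts on GRCm38/mm10 (versions differ between the submitters' notes and the methods of the study). Embryonic libraries were stranded, adult ones unstranded. Spike-in counts were kept out of library sizes. For ATAC-seq the authors aligned with BWA 0.7.8 and called broad peaks with MACS2 2.1.2 on pooled replicates. Each deposited peak carries a ratio, the fold enrichment over local background. It also carries a deposited -log10 q value.

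Counts were fitted in R 4.3.3 with edgeR 4.0.16 (TMM scaling, filterByExpr by group on low counts, quasi-likelihood F-test, Benjamini-Hochberg over all genes tested), the embryonic and adult tables separately. CPM used TMM-scaled library sizes and TPM the summed exon length. Each SE of a log2 fold change from edgeR is approximate, being its size divided by the square root of the F statistic, and need not match the p-value. Alternatives were DESeq2 1.42.0, upper-quartile and spike-in scaling, 1 spike-in factor, no filter, only the groups compared, each library left out, and a replicate block. A promoter peak lay within 1000 bp of the annotated start, with 5000 bp, stricter peaks and GENCODE vM21 starts as alternatives. All 9 ligands are described, receptors are always named, and other listed genes when called in at least 1 comparison. Marker genes were named by the lists they belong to. The 3 genes most like Btc and Nrg1 were taken at a mean of at least 1 CPM, with a prior count of 2. The steps were tested on simulated data.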

Additional observations from a re-analysis of the deposited data

Results flagged for a closer look

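Genes listed beside the ligands lay on opposite sides of their controls in embryonic and adult intestine. Adam17 had a log2 fold change of -0.11 in KO against control embryonic intestine and of 1.00 in the adult libraries labelled EED-KO, and edgeR did not call it in the embryo (adjusted p = 0.699). Ccnd1 had a log2 fold change of 1.69 in embryonic intestine and of -0.65 in the adult libraries labelled EED-KO, where edgeR did not call it (adjusted p = 0.106). In each gene every library of a KO group lay on one side of its controls, and the difference between the ages was not tested. That separation is the rule by which these genes were picked, so it is a description. The share of all genes that meet the rule was not computed.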

How the results depend on the processing

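Directions of the ligands called held under all alternatives run, and the calls that were lost are given with their values here or beside the results. With spike-in scaling the genes called, of 16218 tested, numbered 155 between control organs, 15438 in KO stomach, 13688 in KO intestine, 115 between KO organs and 20 for the interaction. The ligands called numbered 0, 8, 4 and 1 of 9 in the first 4. On that scale Egf (2.24), Nrg1 (1.92) and Nrg2 (1.72) in KO stomach and Hbegf (1.81) and Nrg2 (1.95) in KO intestine turned from a negative to a positive log2 fold change and were called, and Btc (1.32) in KO stomach and Btc (1.17), Egf (1.76) and Nrg1 (1.151) in KO intestine turned without being called. Higher against lower calls were 273 against 549 between control organs (70 and 85 with spike-in scaling), 785 against 131 in KO stomach (15419 and 19), 386 against 37 in KO intestine (13664 and 24), 237 against 477 between KO organs (20 and 95), 44 against 31 for the interaction (20 and 0) and 1856 against 1088 in the adult libraries (1154 and 1321). With 1 spike-in factor they were 349 against 229 in KO stomach, 578 in all, and 248 against 85 in KO intestine, and the interaction called 206. DESeq2 called 685 genes in KO intestine and 207 for the interaction, and no filter on low counts called 800 and 237, with 1 ligand (Btc) in KO stomach. Fitting only the groups compared, with fewer samples and fewer ligands tested, called 244 genes in KO intestine and 397 between KO organs, and 2 ligands between control organs and 1 between KO organs. The cause was not tested for the other changes.

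Leaving out 1 library, where the lone library of a group is assumed to vary like the others, gave 370 to 500 genes between control organs with 1 ligand called each time, 344 to 650 in KO stomach, 74 to 363 in KO intestine, 304 to 528 between KO organs with 1 ligand each time, 27 to 97 for the interaction and 2299 to 3126 in the adult libraries with 3 ligands each time. With all libraries edgeR and DESeq2 called 0 ligands in KO stomach and KO intestine. Each gave 2 at an unadjusted p under 0.05, a level whose share of all genes was not computed. Starts of GENCODE vM21 were added after seeing the data, and all 9 ligands had a peak there in the 4 lists. Each ligand has such a start beside the one used for counting, so that outcome was largely fixed in advance. The share of all genes with such a peak was not computed.

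The labels tie same-numbered libraries by number only. The correlation of their deviations from group means was taken across genes, which are not independent replicates. It was 0.387 between control intestine and control stomach, 0.791 between KO intestine and KO stomach and 0.128 between control and KO intestine. Control intestine and KO stomach had 0.192, and KO intestine and control stomach 0.164. Between control and KO stomach it was 0.0480, and in the adult libraries -0.0649. With the replicate block the ligands called numbered 4 between control organs, 0 in KO stomach and 0 in KO intestine (edgeR), 2 between KO organs and 3 in the adult libraries, and the interaction called 187 genes. A replicate block by genotype called 5 ligands between control organs, with Tgfa (-1.52) added, and 3 between KO organs, with Areg (-3.24) added, 1131 genes between KO organs and 350 for the interaction.

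Depth limits Areg, Ereg and Nrg4 in embryonic intestine and 4 ligands in the adult libraries, where counts of 0 to 7 leave wide intervals.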
